A study of Rattus norvegicus with 6 samples.

Results

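The 10 genes described here encode the core machinery that divides and joins mitochondria: Dnm1l, Fis1, Mff, Mief1, Mief2, Mfn1, Mfn2, Opa1, Oma1 and Yme1l1. They were chosen by name, and all 10 were found among the 21026 gene symbols of the deposited count table. The series concerns mitophagy and bone repair in old age, and its 6 libraries of polyadenylated RNA come from rat marrow stromal cells labelled mesenchymal stem cells, 3 young and 3 aged. No treatment, allele or strain is given for either group, the labels state no age in months, sex or passage, and the biological replicates of each group, numbered 1 to 3, are not tied to named animals. P-values here reflect the spread among these libraries, part of which may be technical.

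Mitochondria form a network that is continually cut and rejoined. In fission, the dynamin-like GTPase DNM1L (DRP1) is drawn from the cytosol to receptors on the outer membrane, assembles into a ring and constricts the organelle. MFF and the paired receptors MIEF1 and MIEF2 (MID51 and MID49) recruit it in mammals, and FIS1 is a smaller outer membrane protein first known as a fission factor. In fusion, the mitofusins MFN1 and MFN2 tether and join outer membranes, and OPA1 joins inner membranes and shapes cristae. OPA1 is cut by 2 inner membrane proteases, YME1L1, which acts in resting cells, and OMA1, which is activated by stress and by loss of membrane potential. The balance of long and cut OPA1 sets whether inner membranes can fuse.

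Libraries held 34638874 to 42479626 counts, and the share of counts from mitochondria-encoded genes was 1.18% ± 0.157 in young and 4.33% ± 0.113 in aged libraries (SD, n = 3 each). Of the 12 stromal markers, 3 were higher and 8 lower in aged cells, and their summed level was 48912 to 49647 CPM (read counts scaled for library size with TMM factors) in young and 27191 to 27409 in aged libraries. Of 11 blood cell markers 9 were in the table and 4 could be tested, 1 higher and 3 lower; their sum was 92.9 to 96.0 CPM in young and 43.4 to 44.2 in aged libraries. In that list Ptprc was at 0 and 0.00854 CPM, C1qa was at 0 in every library, and the tested markers were Csf1r, which rose from 0.321 ± 0.182 to 21.8 ± 0.552 CPM, and Lyz2, Cd14 and Cd68, which fell from 10.4 ± 1.33 to 0.173 ± 0.149, from 80.7 ± 0.772 to 21.0 ± 0.600 and from 2.66 ± 0.763 to 0.784 ± 0.263 CPM. The 6 endothelial markers summed to 0.237 to 0.582 CPM in young and 0.359 to 0.678 in aged libraries, and 9 muscle markers to 9.63 to 10.9 and 3.64 to 4.81 CPM. The part of these shifts in the results below was not tested. In bulk RNA, fewer cells of a type and less RNA per cell cannot be told apart.

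The fission and fusion genes did not move as a block. In edgeR's quasi-likelihood test with Benjamini-Hochberg adjustment over 14273 genes, 7 of the 10 were higher in aged cells, where 44.7% of all tested genes were called higher, and 2 were lower, where 41.8% of all genes were. Mfn2 did not pass. The 7 were the fission GTPase gene Dnm1l, the receptor genes Mff and Mief1, the fusion genes Mfn1 and Opa1, and both OPA1 protease genes Oma1 and Yme1l1. The receptor genes Fis1 and Mief2 were the pair that fell. Together 86.4% of tested genes were called in either direction, so a call alone sets no member apart. The groups did not overlap for 9 of the 10 genes, against 87.5% of all tested genes. At least 2-fold rises were called for 5 of the 10 genes, and for 29.4% of all tested genes. The median log2 fold change was 0.82 over the 10 genes and 0.05 over all tested genes, whose middle 50% ran from -0.85 to 1.30. As a share of all counts, the 10 genes together took 0.0453%, 0.0464% and 0.0454% in young libraries, and 0.0838%, 0.0837% and 0.0846% in aged ones. These shares are not TMM-scaled. Scaling by library size alone shifted log2 fold changes up by 0.34 (median of all genes), so part of that rise is shared by genes in general.

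**Figure D1:**
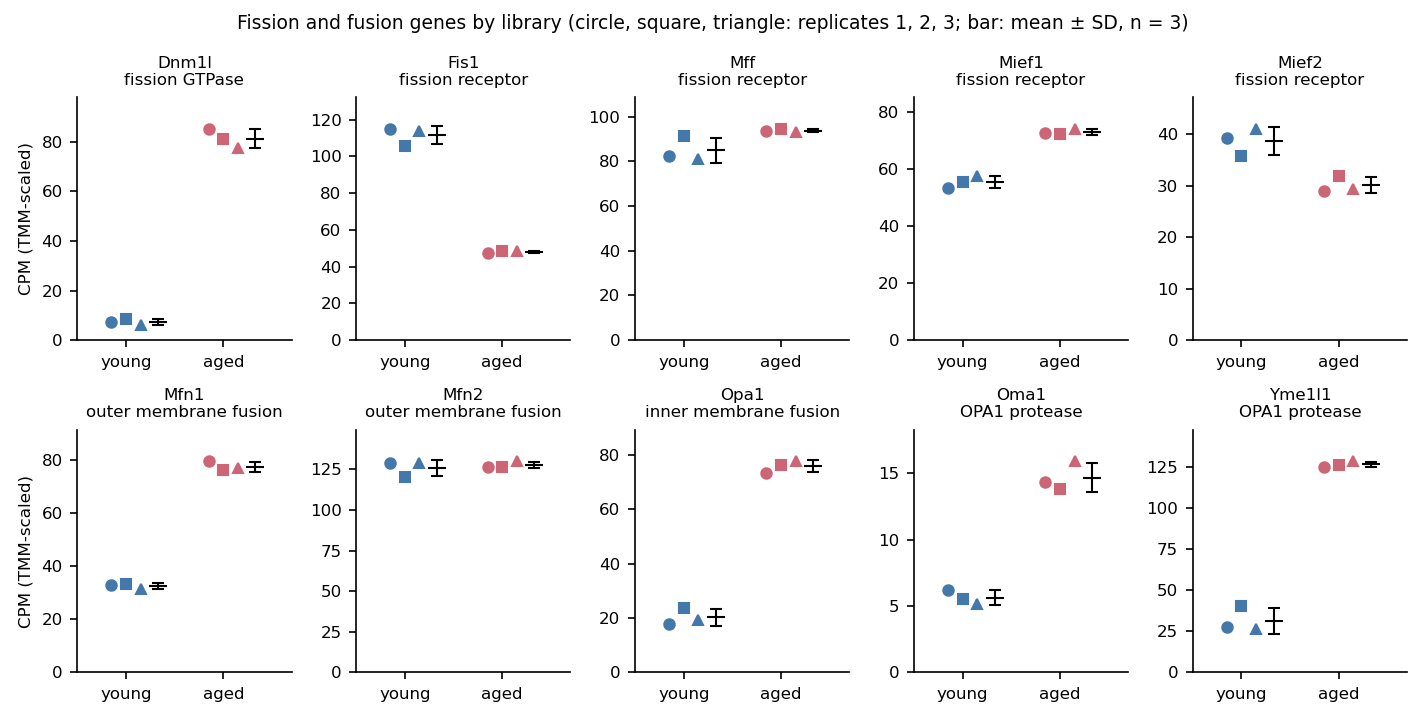
TMM-scaled CPM (vertical axes, each from 0) of the 10 genes in each library; circles, squares and triangles are replicates 1, 2 and 3 of the young (blue) and aged (red) groups, and black bars are mean ± SD (n = 3). Dnm1l stands at 6.16 to 8.41 CPM in young and 77.3 to 85.0 in aged libraries, Fis1 and Mief2 are lower in aged libraries, and the Mfn2 points overlap.

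Among fission genes the widest change was in the GTPase itself. Dnm1l had 7.23, 8.41 and 6.16 CPM in young replicates 1 to 3 and 85.0, 81.0 and 77.3 CPM in aged replicates 1 to 3. Every aged library was thus far above every young one, 11.1-fold on average (log2 fold change 3.48, standard error 0.085, edgeR adjusted p = 1.39e-16). That change stood at the 93.3 percentile of all tested genes. The young mean of 7.27 ± 1.13 CPM (SD, n = 3) rests on 220 to 319 counts per library.

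The receptors of DNM1L moved little or in the other direction. Fis1 had 115, 106 and 114 CPM in young and 47.2, 48.3 and 48.3 CPM in aged libraries. The aged libraries lay well below the young ones and close together, a 2.33-fold fall (log2 fold change -1.22, standard error 0.048, edgeR adjusted p = 9.65e-14). Mief1, which encodes MID51, had 53.3, 55.3 and 57.5 CPM in young and 72.5, 72.1 and 73.9 CPM in aged libraries. It rose 1.32-fold with no overlap between groups (edgeR adjusted p = 7.99e-07). Its relative Mief2, which encodes MID49, had 39.3, 35.7 and 41.0 CPM in young and 29.0, 31.9 and 29.3 CPM in aged libraries. Mief2 fell 1.28-fold (edgeR adjusted p = 1.01e-04), and its lowest young and highest aged libraries were close. When libraries were scaled by size alone, which shifted log2 fold changes up by 0.34 (median of all genes), Mief2 was at -0.02 and was not called (edgeR adjusted p = 0.74).

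Mff, the main outer membrane recruiter of DNM1L, was the smallest of the called rises. Its levels were 82.3, 91.5 and 81.0 CPM in young and 93.6, 94.5 and 93.1 CPM in aged libraries. The second young library came within a few CPM of the aged ones, and the difference was 1.10-fold (log2 fold change 0.14, standard error 0.050, edgeR adjusted p = 0.014). The call was lost without young replicate 1 (0.10 on the log2 scale, edgeR adjusted p = 0.11) and without young replicate 3 (0.09, edgeR adjusted p = 0.13). Without Mff, 6 members were called higher in those fits.

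Promoter windows of Dnm1l, which rose most, and of Fis1, which fell most, are printed to show the regions before and at their start sites, 250 bases before to 50 after the start, from RefSeq on GRCr8. RefSeq gives 2 windows for Fis1, and 9 of the 10 genes had at least 1 window, 11 windows in all. Mfn2 had no window and was not searched. Capitals mark matches on either strand to any of 4 motifs: the core of the NRF1 site (CGCANGCG), the ETS site CCGGAAG, the cyclic AMP response element TGACGTCA and the core of the YY1 site (ANATGGCGG).
Dnm1l, chr11:98085147-98085446, plus strand: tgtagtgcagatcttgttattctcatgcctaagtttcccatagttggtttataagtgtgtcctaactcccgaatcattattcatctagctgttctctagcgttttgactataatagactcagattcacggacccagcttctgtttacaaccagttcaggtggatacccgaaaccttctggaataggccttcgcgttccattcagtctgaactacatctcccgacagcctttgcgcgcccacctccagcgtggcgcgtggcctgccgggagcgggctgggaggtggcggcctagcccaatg
Fis1 window 1, chr12:25359994-25360293, minus strand: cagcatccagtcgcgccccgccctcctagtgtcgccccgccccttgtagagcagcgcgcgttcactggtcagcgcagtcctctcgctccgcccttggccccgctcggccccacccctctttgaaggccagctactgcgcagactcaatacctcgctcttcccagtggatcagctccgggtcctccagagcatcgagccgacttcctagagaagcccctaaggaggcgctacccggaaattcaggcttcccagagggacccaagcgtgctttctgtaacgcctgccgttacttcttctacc
Fis1 window 2, chr12:25349283-25349582, minus strand: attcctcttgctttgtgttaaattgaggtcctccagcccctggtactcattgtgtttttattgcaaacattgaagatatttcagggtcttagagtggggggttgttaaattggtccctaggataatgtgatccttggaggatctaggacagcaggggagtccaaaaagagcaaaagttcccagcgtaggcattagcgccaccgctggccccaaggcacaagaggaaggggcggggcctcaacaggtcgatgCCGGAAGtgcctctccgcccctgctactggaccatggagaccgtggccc
The Dnm1l window and the first Fis1 window hold none of the 4 motifs, and the second Fis1 window holds an ETS match whose first base is at position 2, counted from the start site as 1. An ETS match was present in 4 of the 11 windows (Fis1, Mief1, Mfn1 and Yme1l1), in 8.75% of all 33469 RefSeq windows and in 16.2% of the 12992 windows of tested genes. Mief1 also held the cyclic AMP response element, which 1.83% of all windows and 2.95% of those of tested genes hold. None of the 11 windows held the YY1 letters, found in 2.03% and 4.19%. Another 4 motifs were searched and are not in capitals. The CCAAT box (CCAAT) was in 6 of the 11 windows, 37.5% of all windows and 37.2% of those of tested genes, and the GC box GGGCGG in 10 of 11, 33.1% and 58.2%. TATAAA was in 2 of 11 windows, 14.2% and 7.58%, and the E-box CACGTG in 1 of 11, 6.42% and 8.99%. No match to one of the 8 motifs overlapped a match to another. A match is a description of letters and not a bound site.

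Outer membrane fusion genes split. Mfn1 had 32.8, 33.5 and 31.5 CPM in young and 79.6, 76.1 and 76.9 CPM in aged libraries. The groups were far apart and each was tight, a rise of 2.38-fold (log2 fold change 1.25, standard error 0.053, edgeR adjusted p = 2.20e-13). Mfn2, which also links mitochondria to the endoplasmic reticulum, had 129, 120 and 129 CPM in young and 127, 127 and 130 CPM in aged libraries. The groups overlapped, and the log2 fold change was 0.02 with a standard error of 0.042 (edgeR adjusted p = 0.65). Scaled by library size alone, Mfn2 was at 0.36 and was called higher (edgeR adjusted p = 4.66e-07). Its call thus depended on the scaling.

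Among the members, the inner membrane genes Opa1, Yme1l1 and Oma1 all rose, at the 82.4, 83.5 and 76.1 percentiles of all tested genes. Inner membrane genes of the related lists, given below, went both ways. Opa1 had 17.7, 23.7 and 19.2 CPM in young and 73.3, 76.3 and 77.7 CPM in aged libraries. All aged libraries were above 70 CPM and no young one reached 25, a 3.74-fold rise (log2 fold change 1.90, standard error 0.081, edgeR adjusted p = 2.52e-13). Yme1l1, the protease gene of resting cells, had 27.7, 40.4 and 26.2 CPM in young and 125, 126 and 128 CPM in aged libraries. Its second young library stood apart from the other young ones, and the rise was 4.01-fold (log2 fold change 2.01, standard error 0.10, edgeR adjusted p = 5.02e-12). Oma1, the stress-activated protease gene, had 6.23, 5.57 and 5.12 CPM in young and 14.3, 13.8 and 15.9 CPM in aged libraries. It rose 2.60-fold on 183 to 225 counts per young library (log2 fold change 1.38, standard error 0.11, edgeR adjusted p = 1.85e-09).

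The windows of Opa1 and Yme1l1, the largest rises among the fusion genes and the proteases, are printed with the same capitals, together with that of Oma1.
Opa1, chr11:84689851-84690150, minus strand: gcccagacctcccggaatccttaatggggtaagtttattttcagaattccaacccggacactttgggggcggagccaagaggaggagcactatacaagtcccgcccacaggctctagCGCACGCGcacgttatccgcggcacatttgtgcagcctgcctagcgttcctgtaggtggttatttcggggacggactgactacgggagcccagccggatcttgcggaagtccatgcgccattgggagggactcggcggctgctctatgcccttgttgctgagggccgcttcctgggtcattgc
Yme1l1, chr17:90195837-90196136, plus strand: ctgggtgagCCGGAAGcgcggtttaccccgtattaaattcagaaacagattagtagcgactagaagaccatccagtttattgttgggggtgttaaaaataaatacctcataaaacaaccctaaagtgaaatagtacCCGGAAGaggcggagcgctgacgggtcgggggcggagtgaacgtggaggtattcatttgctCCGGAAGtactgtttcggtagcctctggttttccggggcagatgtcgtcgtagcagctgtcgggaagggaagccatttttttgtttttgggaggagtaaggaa
Oma1, chr5:123312517-123312816, plus strand: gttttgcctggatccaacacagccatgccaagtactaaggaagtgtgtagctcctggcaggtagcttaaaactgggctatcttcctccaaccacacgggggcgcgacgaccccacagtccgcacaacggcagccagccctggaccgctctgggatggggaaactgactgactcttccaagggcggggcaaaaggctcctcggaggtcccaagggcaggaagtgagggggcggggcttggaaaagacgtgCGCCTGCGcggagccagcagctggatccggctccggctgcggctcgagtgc
The NRF1 letters occur in the Opa1 window, from position -133, and in the Oma1 window, from position -1, and in no other of the 11 windows. They occur in 7.60% of all windows and in 15.5% of those of tested genes. Yme1l1 holds 3 ETS matches, from positions -241, -114 and -53.

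**Figure D2:**
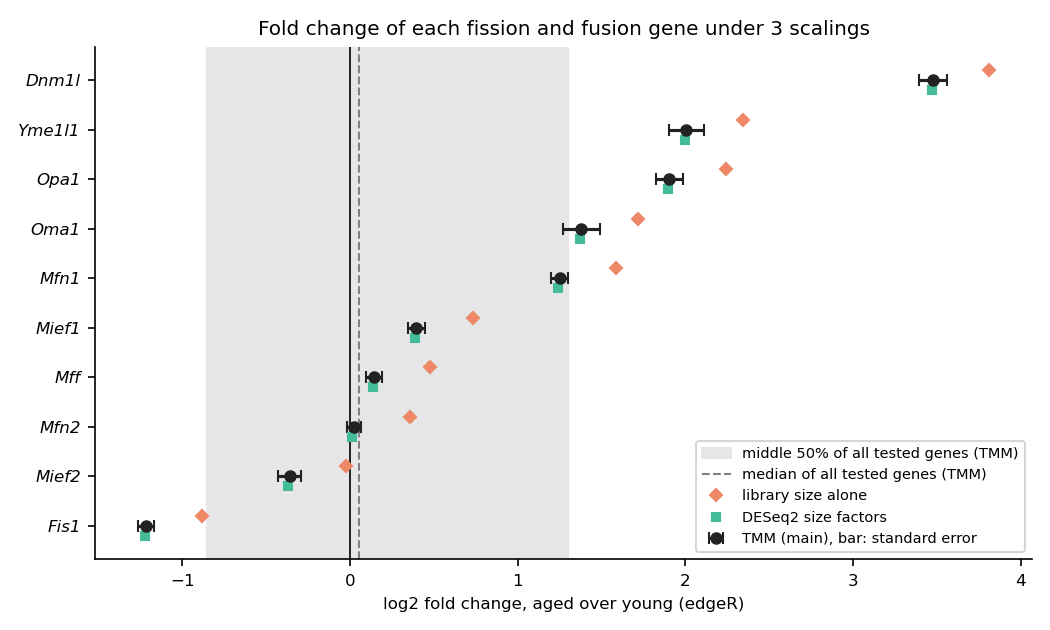
Log2 fold change of each gene, aged over young (horizontal axis), from edgeR with TMM scaling (black, bars are standard errors), DESeq2 size factors (green) and library size alone (orange). The grey band spans -0.85 to 1.30, the middle 50% of all tested genes; only Mief2 and Mfn2 change their call between TMM and library size alone, and Dnm1l, Yme1l1, Opa1 and Oma1 lie above the band under TMM.

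Count ratios within a library do not depend on how libraries are scaled. They are not per transcript length, so only their change between libraries is read. Of 10 ratios compared, each separated the 3 young from the 3 aged libraries. Taken singly, 87.5% of all tested genes did so too, several ratios share Dnm1l, and ratios of other genes were not computed. The two-sided exact permutation test gave p = 0.1 for each ratio (adjusted p = 0.1), the smallest that 3 against 3 libraries allow. For every count of Mfn2 there were 0.255, 0.279 and 0.244 counts of Mfn1 in young libraries and 0.629, 0.602 and 0.593 in aged ones. The mitofusin ratio thus rose 2.34-fold (log2 difference 1.23, standard error 0.062). Counts of Mief1 per count of Mief2 were 1.36, 1.55 and 1.40 in young and 2.50, 2.26 and 2.52 in aged libraries, a 1.69-fold shift between the paired receptors.

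The GTPase gene gained on each of its receptors. Dnm1l counts per Fis1 count were 0.0631, 0.0797 and 0.0543 in young and 1.80, 1.68 and 1.60 in aged libraries, a 26.1-fold change. Against Mief2 the change was 14.4-fold, against Mff 10.2-fold and against Mief1 8.53-fold. Relative to the sum of both mitofusin genes, Dnm1l rose 8.67-fold and Opa1 rose 2.91-fold.

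The genes of the OPA1 proteases also shifted against each other and against Opa1. Yme1l1 counts per Oma1 count were 4.44, 7.25 and 5.10 in young and 8.71, 9.12 and 8.06 in aged libraries. The second young library lay nearer to the aged ones than to its own group's lowest, and the change was 1.57-fold (log2 difference 0.65, standard error 0.22). Opa1 counts per Oma1 count were 2.84, 4.25 and 3.75 in young and 5.11, 5.53 and 4.88 in aged libraries, 1.45-fold more (log2 difference 0.54, standard error 0.18).

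**Figure D3:**
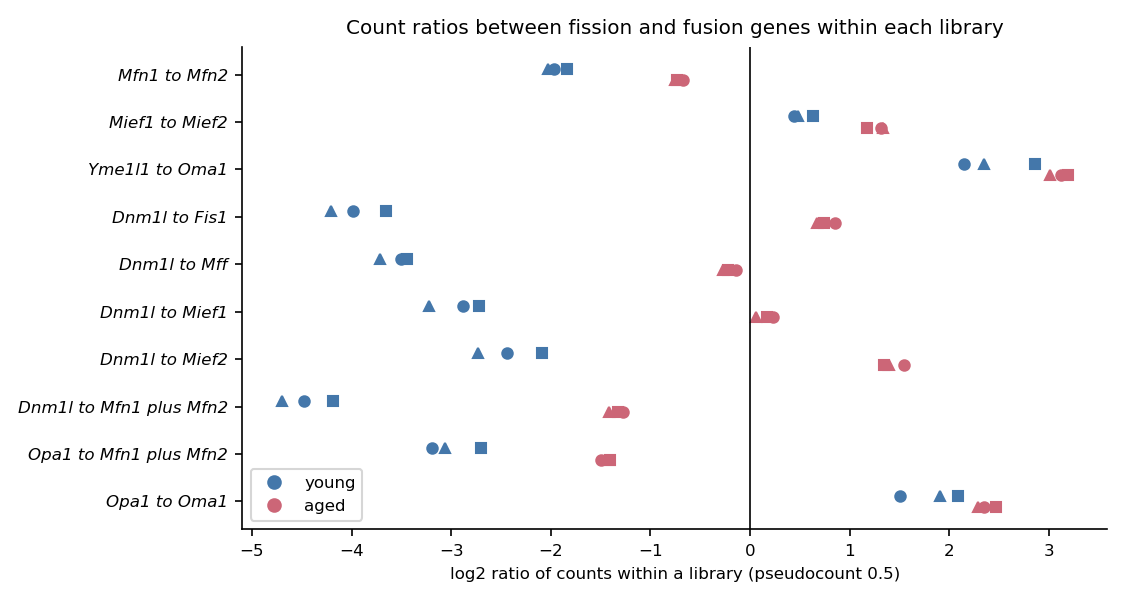
Log2 ratio of counts of 2 genes, or of a gene to the sum of both mitofusin genes, within each library (horizontal axis); blue is young, red is aged, and circles, squares and triangles are replicates 1, 2 and 3. In all 10 ratios the young and aged points do not overlap, as for 87.5% of all tested genes taken singly. Dnm1l to Fis1 moves most, by 4.70, and Opa1 to Oma1 least, by 0.54.

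Young replicate 2 stood apart from the other young libraries for several of these genes. Its Yme1l1 level was 1.49 times, its Opa1 level 1.28 times and its Dnm1l level 1.24 times the mean of the other young libraries, taken on the log2(CPM + 0.5) scale. It was the highest young library for 5 of the 7 members called higher and the lowest for both members called lower. Over all genes called higher it was the highest young library in 50.7%, and it was the lowest in 3075 of the 5964 genes called lower. Mitochondria-encoded genes gave 1.36% of its counts, against 1.07% and 1.12% in young replicates 1 and 3. Without young replicate 2 the log2 fold changes were 2.23 for Yme1l1, 2.03 for Opa1 and 3.59 for Dnm1l, and the counts of members stayed at 7 higher and 2 lower.

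Gene span, the distance from a gene's start to its end with introns, moved with the fold change over all genes. RefSeq on GRCr8 gave a span for 13557 of the 14273 tested genes, and the Spearman correlation with the log2 fold change was 0.22 across those genes, which are not independent replicates and share their libraries. The median log2 fold change was -0.47 in the quintile of genes with the shortest spans and 0.59 in that with the longest. Opa1 and Oma1 lie in the longest quintile, and Dnm1l, Mfn1 and Yme1l1 in the next one, whose median was 0.40. Mff and Mfn2 lie in the middle quintile (median 0.02). Fis1 and Mief1 lie in the next to shortest quintile (median -0.21), where Mief1 was called higher, and Mief2 in the shortest. The part of span in the members' changes was not tested, and transcript length was not analysed here. Yme1l1 shares part of its span with Mastl, a mitotic kinase gene, which fell from 4.99 ± 1.55 to 2.21 ± 0.567 CPM (edgeR adjusted p = 1.69e-04). The strand setting of the counting is not given, so reads of both genes in the shared stretch cannot be told apart. Mief1 overlaps a locus named LOC134479940 in RefSeq.

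Of 68 genes in 7 related lists, 67 were in the table and 66 could be tested, with 23 higher, 34 lower and 9 not called, beside 44.7% higher and 41.8% lower over all tested genes. The counts below are read against those shares. The median log2 fold change was -0.16, beside 0.82 for the fission and fusion genes and 0.05 for all tested genes. Named below are the largest called rise and fall of each list and a few genes chosen after their values were seen.

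Helpers of fission went both ways, with 3 of 8 tested genes higher and 4 lower, or 4 and 3 under library size alone. Slc25a46, an outer membrane protein gene of the carrier family, rose 4.52-fold from 12.6 ± 1.13 to 57.0 ± 0.542 CPM. Inf2, the formin that builds actin at fission sites, fell 3.63-fold from 416 ± 14.1 to 114 ± 2.33 CPM. Among 7 tested fusion helpers 2 were higher and 4 lower, or 3 and 3 under library size alone. Miga1, encoding mitoguardin 1 of the outer membrane, rose 18.0-fold from 0.522 ± 0.155 to 9.43 ± 0.627 CPM on 16, 16 and 25 young counts. Stoml2, an inner membrane scaffold gene, fell 1.83-fold.

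Of 22 enzymes known to modify DNM1L or its receptors, 9 were higher and 9 lower, or 12 and 9 under library size alone. Prkaa2, a catalytic subunit of the energy-sensing kinase AMPK that phosphorylates MFF, had 2, 7 and 0 counts in young and 232, 262 and 240 in aged libraries. Its fitted rise was 69.6-fold, and with so few young counts that value depends on the prior count. Prkaa1, the other catalytic subunit, rose 9.38-fold from 5.96 ± 0.370 to 56.0 ± 1.22 CPM. Cdk1, the mitotic kinase that phosphorylates DNM1L when cells divide, fell 30.2-fold from 160 ± 5.12 to 5.27 ± 0.884 CPM.

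Other inner membrane proteases and the relay that carries the OMA1 stress signal had 2 of 6 genes higher and 4 lower. Afg3l2, a subunit of the matrix-facing protease, rose 1.76-fold, and its partner Spg7 fell from 84.1 ± 2.65 to 28.1 ± 0.610 CPM. Dele1, the substrate of OMA1 in that relay, went from 32.8 ± 1.91 to 29.1 ± 0.511 CPM (edgeR adjusted p = 0.022). Under library size alone Dele1 was called higher, which made the list 3 higher and 3 lower.

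The list for the MICOS complex, which holds cristae junctions, also held Samm50, an outer membrane gene that is not a MICOS subunit. Of the 8 genes 2 were higher and 4 lower, Samm50 included, or 4 and 4 under library size alone. Immt, encoding the MICOS core subunit mitofilin, rose 2.82-fold from 50.9 ± 7.11 to 143 ± 1.49 CPM. Chchd3, encoding its partner MIC19, fell 2.53-fold from 99.7 ± 1.87 to 39.4 ± 2.13 CPM. Of 7 transport genes 3 were higher and 4 lower, under TMM and under library size alone. Kif5b, the motor that carries mitochondria along microtubules, rose 11.1-fold from 46.1 ± 4.97 to 512 ± 11.5 CPM, and the adaptor gene Trak1 fell from 83.2 ± 3.47 to 41.5 ± 2.96 CPM. Cardiolipin, the inner membrane lipid needed for OPA1-driven fusion, had 2 of 8 synthesis and supply genes higher and 5 lower. Scaling by library size alone gave 3 higher and 2 lower in that list, with 4 calls changed. Lclat1, encoding an acyltransferase, rose 4.78-fold, and Prelid1, encoding a lipid transfer protein, fell 2.71-fold from 326 ± 5.15 to 120 ± 1.51 CPM. Each gene named from these lists as higher or lower had an edgeR adjusted p of 0.022 or less.

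**Figure D4:**
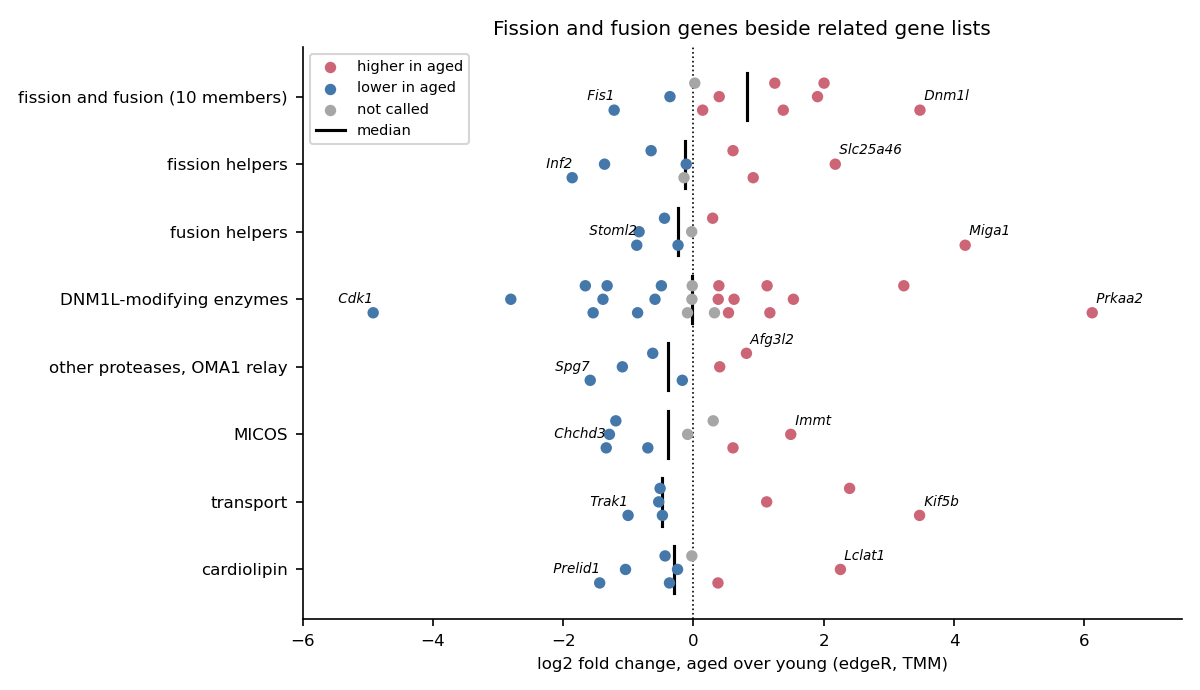
Log2 fold change, aged over young (horizontal axis), of the 10 fission and fusion genes and of 7 related lists; each point is a tested gene, red if called higher, blue if called lower and grey if not called, and the black tick is the list's median. The tick stands at 0.82 for the fission and fusion genes and between -0.48 and -0.02 for the other lists under TMM; scaled by library size alone, 4 of those 7 medians are above 0.

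Like Mief1 and Mief2, some pairs of related genes in these lists had 1 gene called higher and the other lower. This was so for 5 of 9 such pairs besides the mitofusin and MIEF genes; the pairs were chosen after their values were seen and were not tested, and 44.7% of all tested genes were called higher and 41.8% lower. The Miro GTPase gene Rhot1, whose product anchors the transport motor to mitochondria, rose 5.27-fold from 11.9 ± 2.49 to 62.6 ± 1.02 CPM, and Rhot2 fell 1.43-fold from 26.1 ± 0.462 to 18.3 ± 0.417 CPM. Trak2 rose 2.18-fold where Trak1 fell, and Miga2 fell 1.78-fold where Miga1 rose. Ppp3ca, a catalytic subunit of calcineurin, the phosphatase that activates DNM1L, rose 2.26-fold, and its relative Ppp3cb fell 1.81-fold. Both metaxin genes, Mtx1 and Mtx2, fell. With the mitofusin and MIEF pairs included, the gene with the higher log2 fold change, sign counted, had the longer span in 9 of 11 pairs. Trak1 and Trak2, and Chchd3 and Chchd6, were the exceptions. Mtx1 and Mtx2, counted among the 9, differed by only 0.06, with standard errors of 0.067 and 0.056. Longer spans went with higher changes over all genes as well (Spearman correlation 0.22), and no share over other gene pairs was computed. Under library size alone the Mief1 and Mief2 calls were no longer opposite, whereas those of Chchd3 and Chchd6 became so.

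**Figure D5:**
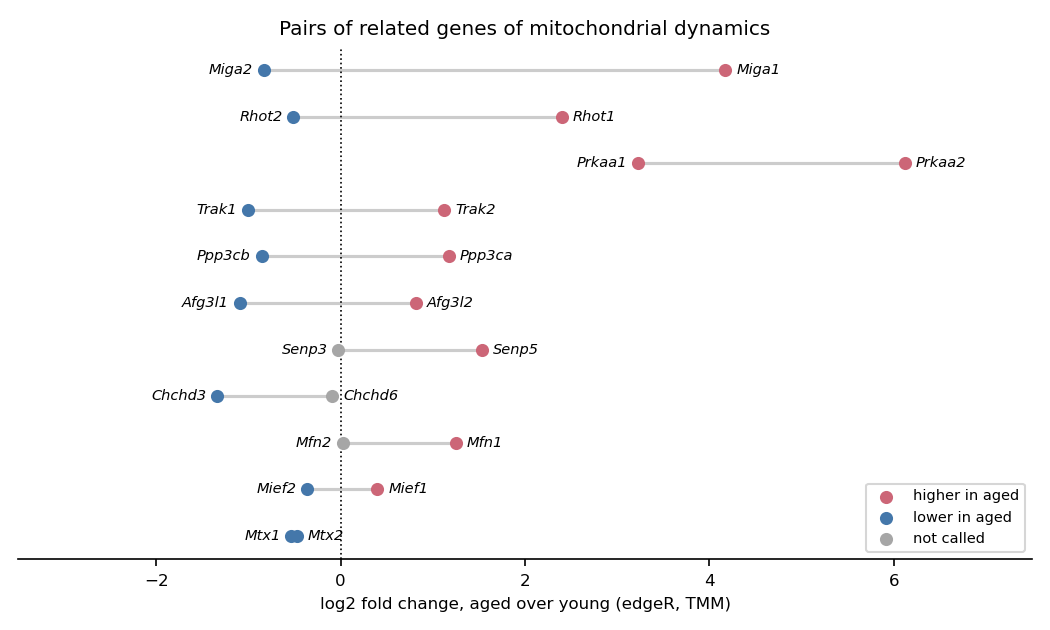
Log2 fold change, aged over young (horizontal axis, edgeR with TMM), of the genes in 11 pairs of related genes, ordered by the gap between them; red is called higher, blue called lower and grey not called. The widest gap is 5.01 between Miga1 and Miga2, the mitofusin gap is 1.23, and Mtx1 and Mtx2 differ by 0.06; scaled by library size alone, Mief2 is no longer called and Chchd6 is called higher.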

How the data were processed

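The deposited table holds raw, unnormalized counts, 1 row a gene symbol and 1 column a library; per the submitters' processing notes, the authors used fastp, HISAT2 and HTSeq (no versions stated). Genome build, annotation and strand setting: not given in the sources used here. Columns were matched to samples by library name. Aged was tested against young with edgeR 4.0.16 under R 4.3.3 (filterByExpr with a minimum count of 10, TMM, quasi-likelihood F test, group as the only term), adjusted by Benjamini-Hochberg over 14273 genes and called under 0.05. All 10 members passed the filter. CPM values are TMM-scaled. The standard error is the log2 change divided by the square root of F. Ratios within a library used a pseudocount of 0.5. The procedure was run on simulated counts in which few genes changed, equally many up and down. That simulation therefore says nothing on how the scaling acts in these data, where 86.4% of tested genes were called. Alternatives were DESeq2 1.42.0, limma 3.58.1 (voom), other scalings, no filter, each library left out and a replicate block. Named genes were all members and the largest called rise and fall of each list; other list genes were named after their values were seen. Phb was matched by synonym to Phb1; Gdap1 was not analysed here, and some list genes are counted but not reported by name. Members, lists and tests were chosen with earlier results of these data known.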

Additional observations from a re-analysis of the deposited data

How the results depend on the processing

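Over 13 alternatives to the fit, the 10 genes kept their direction wherever they were called. Scaling by library size alone gave 8 members higher and 1 lower in place of 7 and 2, since Mfn2 became called and Mief2 did not, and 62.3% of all called genes were then higher, against 51.7%. That scaling also gave 32 genes of the related lists as higher and 28 as lower, in place of 23 and 34. Leaving out 1 library at a time gave 6 to 7 members higher and 2 lower, and Mff was the gene lost, without young replicate 1 or 3. Log2 fold changes over all fits ran from 3.36 to 3.81 for Dnm1l, 1.80 to 2.24 for Opa1, 1.87 to 2.34 for Yme1l1 and -1.26 to -0.88 for Fis1. With the replicate block, 7 members were higher and 2 lower, and the block changed no member's call; deviations of same-numbered libraries correlated at -0.013, 0.0080 and 0.026, so the numbers were not taken as pairs. The within-library ratio differences kept their sign with a pseudocount of 0 and when 1 library was left out. With 1 library left out, they ran from 1.19 to 1.28 for Mfn1 to Mfn2 and from 0.37 to 0.66 for Opa1 to Oma1. The replicate block cannot change a ratio difference, and scaling does not enter it. No exact test of 3 against 3 libraries can go below 0.1. Low counts limit Oma1, Prkaa2, and both Dnm1l and Miga1 in young cells.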
